A study of Homo sapiens with 30 samples.

Results

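Hybrid tumoroids whose droplets presented PD-1 together with ICOS were compared with hybrid tumoroids whose droplets carried no protein. The members were chosen by sample title and make up 6 of the 30 RNA-seq libraries of the series, 3 per group. All cultures were PANC-1, a cell line from a human pancreatic ductal adenocarcinoma, with the genotype given as WT. Cells were plated in low-serum medium with DSLBs, which are droplet-supported lipid bilayers, oil droplets wrapped in a membrane that stand in for a cell, and together they aggregated into a 3D culture before RNA was taken. In the PD-1/ICOS group the bilayer held recombinant human PD-1 and ICOS, bound through their His tags. In the plain group the DSLBs were left uncoupled, and no step of protein incubation and washing is described for them. PD-1 hybrids and tumoroids without DSLBs, 3 libraries each, are given beside these groups where they place a value, and 18 libraries hold the 6 other pairs of PD-1 with a second protein.

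The design limits what the comparison can separate. The ICOS reagent carried a human Fc tag besides its His tag, while PD-1 carried a His tag alone, and the series has no group with ICOS alone. PD-1, ICOS, the Fc part and the coupling step therefore cannot be told apart between PD-1/ICOS and plain hybrids. Replicates are described as parallel biological replicates of 1 cell line, so p-values measure the spread between such cultures. In bulk RNA, fewer cells of a kind and less RNA per cell cannot be told apart.

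PD-1 is an inhibitory receptor of activated T cells. Its ligands PD-L1 (gene CD274) and PD-L2 (gene PDCD1LG2) are displayed by tumor and antigen-presenting cells, and PD-L1 can also pass signals into the cell that bears it. ICOS is a costimulatory receptor of the CD28 family on activated T cells, and its ligand ICOSL (gene ICOSLG) is found on antigen-presenting cells and on some epithelial and tumor cells. With PD-1 and ICOS on the droplets, the tumor cells face the receptors of a T cell without the T cell.

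Expected counts summed to 28.9, 48.2 and 58.1 M per library in PD-1/ICOS hybrids, against 37.0, 36.8 and 25.8 M in plain hybrids, a difference within the spread (exact permutation test, two-sided, p = 0.3, where 3 against 3 cannot go below 0.1). Mitochondrial genes took 4.65% ± 0.45 of counts in PD-1/ICOS and 4.90% ± 0.249 in plain hybrids (SD, n = 3 each, exact permutation p = 0.4). The 100 most abundant genes took 22.7% ± 0.509 of counts in PD-1/ICOS and 21.3% ± 0.154 in plain hybrids (SD, n = 3 each), with no overlap and the smallest p this design allows (exact permutation p = 0.1). Keratins of ductal epithelium were abundant in both groups, with KRT8 at 3390 to 3540 CPM in PD-1/ICOS and 2550 to 2770 CPM in plain hybrids, and 8 of 10 ductal markers passed the filter on low counts. CPM here and below is a count scaled to 1e6 counts of the TMM-adjusted library. Of 14 T and NK cell markers only 3 passed the filter on low counts, 5 had no count in any of the 6 libraries, and the list summed to 1.53 to 1.78 TPM in PD-1/ICOS against 1.38 to 2.07 TPM in plain hybrids.

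The genes of the 2 presented receptors and their partners were at or near 0, or did not pass the test. CD274 (chr9:5450503-5470566, coordinates here and below from GENCODE on GRCh38) had 6, 6 and 3 counts in the PD-1/ICOS libraries and 3, 4 and 3 counts in the plain libraries, too few for the test. PDCD1LG2 had no count in these 6 libraries, where a count of 0 allows up to 0.104 CPM in the shallowest PD-1/ICOS library and 0.114 CPM in the shallowest plain library. Both genes of PD-1 ligands thus lay at or near the detection limit of 3 counts, which like other limits here covers counting error only. ICOSLG (chr21:44215382-44241446) was detected, with 15.1, 18.1 and 16.9 CPM in PD-1/ICOS hybrids, against 16.9, 14.2 and 16.4 CPM in plain hybrids. Its ranges overlapped and it did not pass (log2 fold change 0.08 with a standard error of 0.0923, edgeR adjusted p = 0.61). The mRNA of ICOS itself was at 0 in all 6 libraries, and PDCD1, the gene of PD-1, had 0.243, 0.368 and 0.308 CPM in PD-1/ICOS against 0.291, 0.395 and 0.267 CPM in plain hybrids (log2 fold change −0.04, edgeR adjusted p = 0.962). Among 7 genes of Fc binding 3 were tested and 1 rose, and the list summed to 1593 to 1913 TPM in PD-1/ICOS, 1717 to 1966 TPM in PD-1 and 1280 to 1428 TPM in plain hybrids. Of the 7 genes, 2 had no count in the 6 libraries. The member that rose was B2M (log2 fold change 0.41), the light chain shared by MHC class I and the neonatal Fc receptor, whose values stand with the MHC class I genes below. B2M is part of the list sum, so the sum does not give the level of Fc receptors alone. FCGRT, the heavy chain of that receptor, had 38.8, 39.3 and 42.7 CPM in PD-1/ICOS and 35.7, 35.8 and 33.7 CPM in plain hybrids and did not pass (log2 fold change 0.20, edgeR adjusted p = 0.153).

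PD-1/ICOS hybrids differed from plain hybrids in a large part of the transcriptome. Among the gene lists described below, 24 of 31 hypoxia and glycolysis genes, 10 of 17 MHC class I genes and 12 of 29 interferon response genes rose, while 26 of 28 proliferation genes and 8 of 13 heat shock genes fell. Of 18424 genes tested, 3614 (19.6%) passed at an adjusted p under 0.05 (edgeR's quasi-likelihood test over all 30 libraries, Benjamini-Hochberg), 1808 of them higher (9.81% of those tested) and 1806 lower (9.80%). Most changes were moderate. The median absolute log2 fold change of the 3614 genes was 0.41, and 174 of them rose and 210 fell by at least 1 on the log2 scale. The libraries of the 2 groups did not overlap for 3592 of these genes, as against 47.6% of all genes tested. The median log2 fold change over all genes was 0.00688 with a median standard error of 0.116. Protein-coding genes made up 87.8% of the genes that rose and 95.8% of those that fell, against 77.8% of all genes tested. In addition 170 lncRNA genes rose while 35 fell. The number of lncRNA genes tested is not given here, so these counts carry no share. Among the 12668 genes with a mean of at least 100 counts, 3333 were called. A model of only the 6 libraries called 6695 genes with edgeR, so the count depends on which libraries enter the fit.

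**Figure D1:**
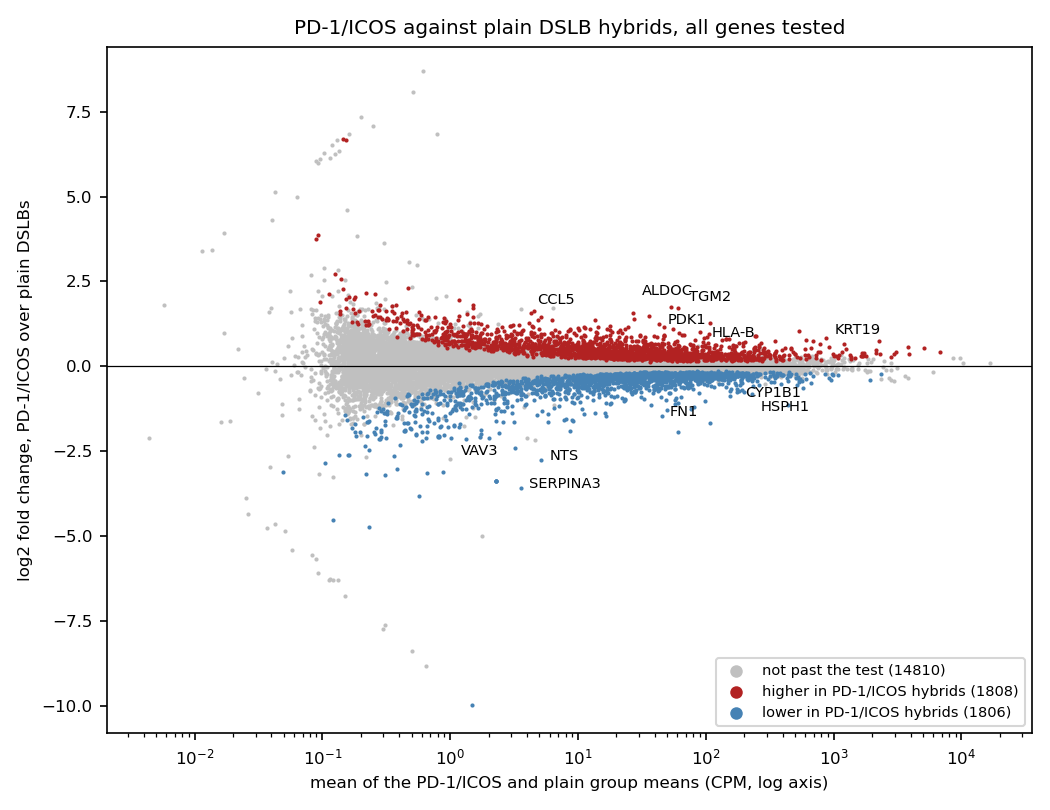
Each point is 1 of 18424 genes, with the mean level of PD-1/ICOS and plain hybrids in CPM on a log axis and the log2 fold change of PD-1/ICOS over plain hybrids. Red points (1808) passed the test higher, blue points (1806) passed lower, and grey points did not pass, and most colored points lie within 1 log2 unit of 0.

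The largest increases included genes of sugar metabolism, secreted factors and a protein cross-linking enzyme. ALDOC (chr17:28573115-28576948), an aldolase of glycolysis, had 90.2, 72.2 and 82.5 CPM in PD-1/ICOS hybrids, against 21.8, 26.5 and 25.1 CPM in plain hybrids (log2 fold change 1.74 with a standard error of 0.116, edgeR adjusted p = 4.03e-11). TGM2 (chr20:38127385-38166578), a transglutaminase that cross-links proteins, had 101, 91.6 and 87.5 CPM in PD-1/ICOS and 28.9, 24.7 and 30.7 CPM in plain hybrids (log2 fold change 1.73 with a standard error of 0.127, edgeR adjusted p = 2.79e-10). For both genes every PD-1/ICOS library lay far above every plain library. Lack of overlap was a condition for naming the genes in this paragraph. PFKFB4, which sets the level of a regulator of glycolysis, had 54.0, 50.8 and 54.9 CPM in PD-1/ICOS and 19.6, 14.2 and 23.3 CPM in plain hybrids (log2 fold change 1.49, edgeR adjusted p = 7.34e-10). RASD2, a small GTPase, had 42.4, 38.5 and 39.3 CPM in PD-1/ICOS and 13.3, 11.8 and 15.7 CPM in plain hybrids (log2 fold change 1.57, edgeR adjusted p = 3.15e-11). Less abundant genes that rose were PPP1R3G, a glycogen-targeting subunit of protein phosphatase 1 (log2 fold change 1.64), APLN, the peptide ligand apelin (1.72), SBK2 (1.94) and SAPCD1 (1.54). NPIPA7 (1.80, edgeR adjusted p = 0.0442) belongs to a family of near-identical copies, so its counts are uncertain, and its call was lost without any 1 of the 6 libraries except PD1_ICOS replicate 2 (edgeR adjusted p between 0.084 and 0.244, the highest without PD1_ICOS replicate 3 at a log2 fold change of 1.25).

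The largest decreases included secreted proteins and a signaling protein. NTS (chr12:85874295-85882992), the precursor of the peptide neurotensin, had 1.32, 1.54 and 1.13 CPM in PD-1/ICOS hybrids, against 9.48, 7.24 and 10.2 CPM in plain hybrids (log2 fold change −2.75 with a standard error of 0.191, edgeR adjusted p = 6.18e-11). VAV3, an exchange factor for small GTPases, had 0.765, 1.15 and 1.08 CPM in PD-1/ICOS and 5.25, 5.53 and 5.45 CPM in plain hybrids (log2 fold change −2.41, edgeR adjusted p = 5.24e-09). Both genes were at similar levels in the 3 libraries of a group. SERPINA3 (chr14:94612384-94624055), the protease inhibitor alpha-1-antichymotrypsin, had 0.487, 0.225 and 0.907 CPM in PD-1/ICOS and 7.84, 7.50 and 4.54 CPM in plain hybrids (log2 fold change −3.57 with a standard error of 0.957, edgeR adjusted p = 0.011). Its call was lost without PD1_ICOS replicate 2 (log2 fold change −3.17, edgeR adjusted p = 0.0563), and in PD-1 hybrids 1 library stood far above the others, with 0.10, 5.42 and 0.408 CPM. DIPK1C (log2 fold change −2.11) and IGSF10 (−2.09) fell as well. Lack of overlap was again a condition for naming the genes in this paragraph. The record ENSG00000258465 (chr1:160216800-160285130) had no count in the 3 PD-1/ICOS libraries and 4.80, 1.37 and 2.71 CPM in plain hybrids, at least 40.9-fold lower with the PD-1/ICOS libraries set at 3 counts each (edgeR adjusted p = 0.0171). It is annotated as a readthrough gene that overlaps DCAF8 and PEX19, so its estimate is uncertain, and the call was lost without PD1_ICOS replicate 2 (edgeR adjusted p = 0.0559), PD1_ICOS replicate 3 (0.0645) or plain replicate 1 (0.0508). The 4 records of 5.8S rRNA, identical copies with identical values, had 0.591, 0.368 and 0.360 CPM in PD-1/ICOS and 2.44, 8.90 and 1.07 CPM in plain hybrids (log2 fold change −3.36, edgeR adjusted p = 0.0147). That call was lost without plain replicate 2 (log2 fold change −2.12, edgeR adjusted p = 0.194), PD1_ICOS replicate 2 (0.0549) or PD1_ICOS replicate 3 (0.0663).

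**Figure D2:**
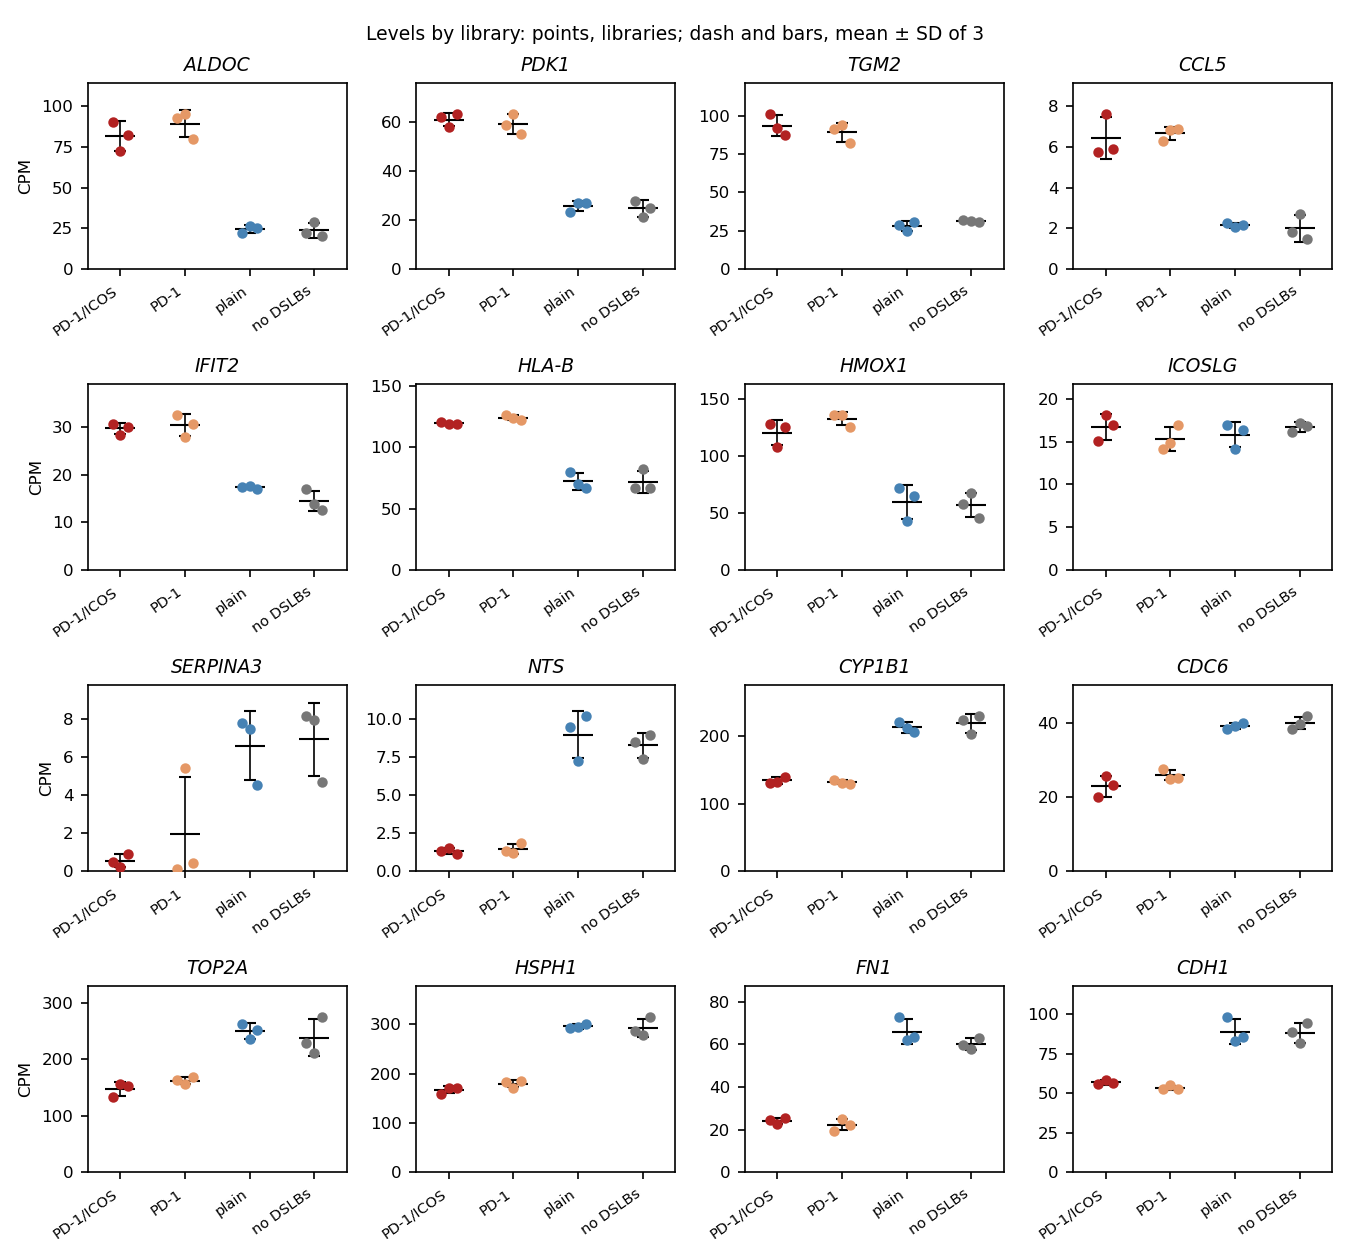
CPM of 16 genes in the 3 libraries of PD-1/ICOS, PD-1, plain and no-DSLB cultures, where points are libraries and the dash and bars are the mean ± SD, with a bar that would pass below 0 ending at the axis. For ALDOC the PD-1/ICOS libraries lie between 72.2 and 90.2 CPM and the plain libraries between 21.8 and 26.5 CPM, while the ICOSLG ranges of the 2 groups overlap.

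Genes of hypoxia and glycolysis rose nearly as a group. When oxygen is short, the factor HIF switches on glucose uptake and glycolysis, and several of these genes also follow other growth and stress signals. Of 31 members tested, 24 rose, 3 fell and 4 did not pass, with a median log2 fold change of 0.58 against 0.00688 over all genes. PDK1, a kinase that inhibits pyruvate dehydrogenase in mitochondria, had 61.7, 57.7 and 62.9 CPM in PD-1/ICOS hybrids, against 23.1, 26.8 and 27.0 CPM in plain hybrids (log2 fold change 1.25 with a standard error of 0.092, edgeR adjusted p = 1.62e-10). HK2, the hexokinase that commits glucose to glycolysis, had 33.3, 31.9 and 36.4 CPM in PD-1/ICOS and 15.4, 12.3 and 18.1 CPM in plain hybrids (log2 fold change 1.16, edgeR adjusted p = 2.13e-08). ENO2, an enolase, had 84.6, 77.7 and 82.5 CPM in PD-1/ICOS and 42.3, 36.9 and 45.4 CPM in plain hybrids (log2 fold change 0.98, edgeR adjusted p = 1.27e-08). None of these 3 genes overlapped between the groups, which held for 3592 of all 3614 called genes. The 3 members that fell, named after their values were seen, were HIF1A, which encodes the oxygen-regulated subunit of HIF (−0.61), EGLN3, a prolyl hydroxylase that marks that subunit for decay (−0.45), and SLC2A3, a glucose transporter (−1.27). The list summed to 22360 to 24290 TPM in PD-1/ICOS hybrids and 16180 to 17490 TPM in plain hybrids.

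The sequence before the start of 2 of these genes is shown because the list moved together and HIF binds a short core. The letters ACGTG or GCGTG, searched on both strands in the 250 bases before the RefSeq start (GRCh38.p14), occurred in 18 of the 27 members with an entry (66.7%) and in 43.1% of all 27305 promoters. Among members with an entry that were called in either direction, 14 of 23 held them. Whether the letters go with the change was not tested. ALDOC is read from chr17:28576949-28577145 (minus strand, cut before the first exon that GENCODE annotates) and HK2 from chr2:74833877-74834126 (plus strand), with the core on either strand in capitals.
ALDOC: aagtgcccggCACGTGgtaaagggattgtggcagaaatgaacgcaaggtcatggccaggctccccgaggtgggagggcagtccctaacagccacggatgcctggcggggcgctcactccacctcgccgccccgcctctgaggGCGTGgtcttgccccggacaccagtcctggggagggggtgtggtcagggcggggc
HK2: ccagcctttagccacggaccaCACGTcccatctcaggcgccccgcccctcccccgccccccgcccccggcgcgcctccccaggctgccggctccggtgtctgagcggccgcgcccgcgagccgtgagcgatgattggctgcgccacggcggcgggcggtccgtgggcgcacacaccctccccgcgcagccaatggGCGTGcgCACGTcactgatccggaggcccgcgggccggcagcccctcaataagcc
The run CACGTG in ALDOC holds the core on both strands and is also the letters of an E-box. PDK1 had no match in its window. Matches are letters in a window and were not tested for binding.

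Cell cycle genes fell almost without exception. Of 28 proliferation genes tested, 26 fell and none rose, with a median log2 fold change of −0.51. CDC6, which loads the replicative helicase onto origins, had 20, 25.7 and 23.3 CPM in PD-1/ICOS hybrids, against 38.4, 39.2 and 40.0 CPM in plain hybrids (log2 fold change −0.76 with a standard error of 0.084, edgeR adjusted p = 1.70e-07). TOP2A, the topoisomerase that untangles replicated chromosomes, had 133, 157 and 152 CPM in PD-1/ICOS and 262, 235 and 252 CPM in plain hybrids (log2 fold change −0.76, edgeR adjusted p = 3.01e-07). The transcription factor gene E2F2, which acts at the entry into S phase, had 3.30, 3.68 and 3.49 CPM in PD-1/ICOS and 6.12, 5.79 and 6.48 CPM in plain hybrids (log2 fold change −0.81, edgeR adjusted p = 1.32e-06). MCM4, a helicase subunit, fell by 0.52 on the log2 scale (edgeR adjusted p = 1.71e-07). Members with no call were MCM5 (0.08) and CCNB2 (−0.28), named after their values were seen. The list summed to 863.5 to 974.1 TPM in PD-1/ICOS hybrids and 1273 to 1392 TPM in plain hybrids. Replication-dependent histones, made mainly in S phase, had 6 of 12 members lower and none higher (median −0.32), with H4C8 at −1.08 and H1-2 at −0.67. The histone count was 3 without plain replicate 2, plain replicate 3 or PD1_ICOS replicate 2.

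E2F factors drive many of these genes, and the E2F2 promoter itself is shown as an example. The letters TTTCCCGC or TTTGGCGC, searched on both strands, occurred in 7 of the 23 proliferation genes with an entry (30.4%) and in 1.96% of all promoters. Among the called members with an entry, 7 of 22 held them. E2F2 is read from chr1:23531234-23531483 (minus strand, GRCh38.p14, RefSeq) with the match in capitals.
E2F2: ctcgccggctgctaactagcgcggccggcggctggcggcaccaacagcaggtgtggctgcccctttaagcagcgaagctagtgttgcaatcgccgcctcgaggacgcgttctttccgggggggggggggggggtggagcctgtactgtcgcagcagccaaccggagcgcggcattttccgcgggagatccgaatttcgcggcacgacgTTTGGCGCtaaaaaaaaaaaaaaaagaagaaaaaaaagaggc
CDC6 and TOP2A had no match to these letters in their windows. Other forms of the E2F site were not searched, so this does not show that the site is absent.

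**Figure D3:**
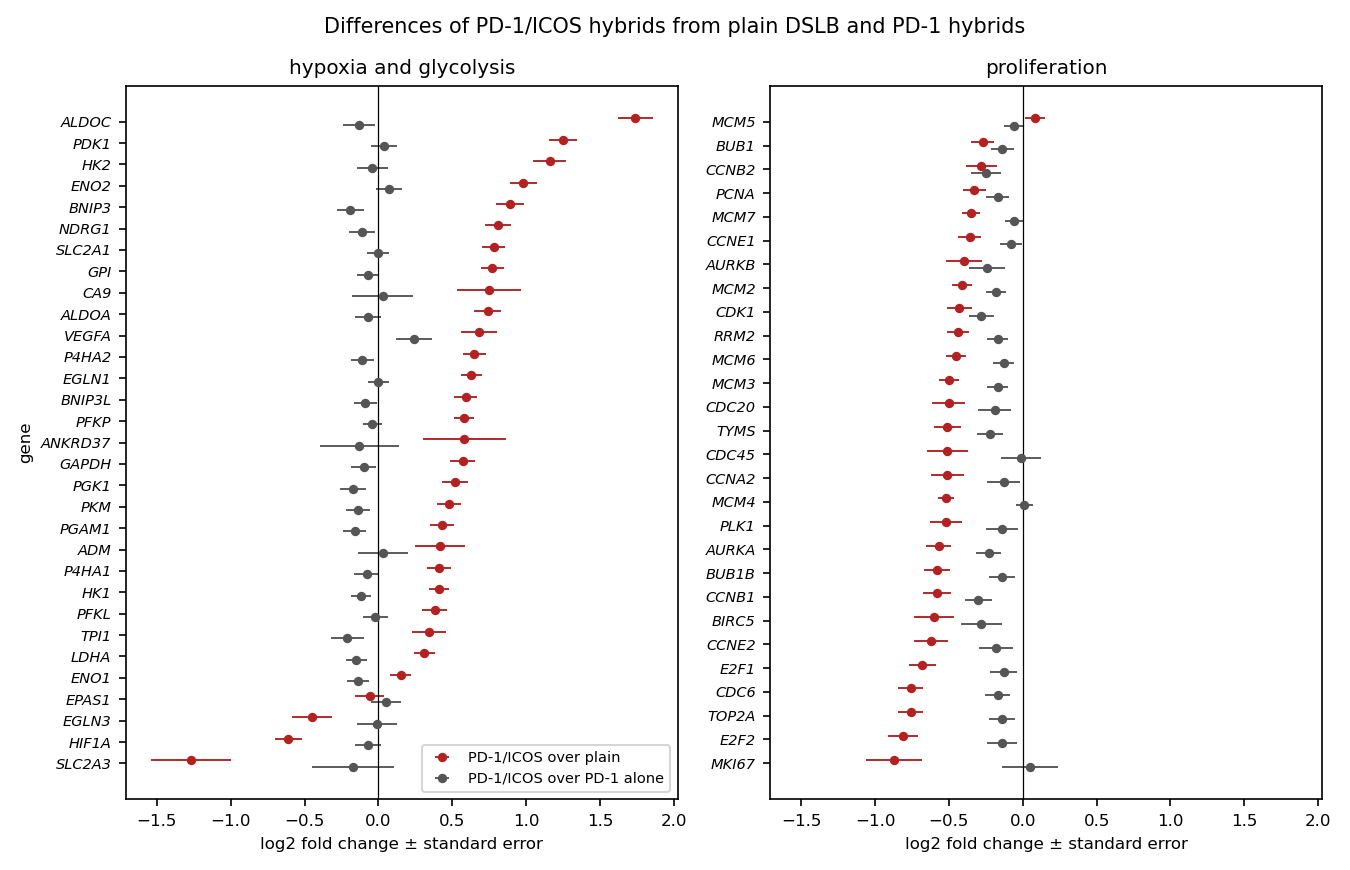
Log2 fold change with its standard error for the 31 hypoxia and glycolysis genes (left) and 28 proliferation genes (right), in red for PD-1/ICOS over plain hybrids and in grey for PD-1/ICOS over PD-1 hybrids. Red points lie right of 0 for most glycolysis genes, up to 1.74 for ALDOC, and left of 0 for proliferation genes except MCM5, while grey points lie nearer to 0 for most genes and no gene passed in that comparison.

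MHC class I shows peptides of the cell's own proteins to CD8 T cells. Of 17 genes tested 10 rose and none fell (median log2 fold change 0.35). HLA-B had 120, 119 and 119 CPM in PD-1/ICOS hybrids, against 79.5, 69.8 and 66.8 CPM in plain hybrids (log2 fold change 0.73 with a standard error of 0.074, edgeR adjusted p = 4.21e-08). B2M, the invariant light chain, had 502, 595 and 540 CPM in PD-1/ICOS and 424, 417 and 390 CPM in plain hybrids (log2 fold change 0.41, edgeR adjusted p = 1.74e-04). HLA-E (0.35) rose as well. HLA genes are close relatives of each other, so reads may be split between them.

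Interferon response genes rose in part. These genes are induced through STAT and IRF factors and include sensors and effectors against viral RNA. Of 29 tested 12 rose and none fell, with a median log2 fold change of 0.36. IFIT2, which binds foreign RNA, had 30.7, 28.4 and 30.1 CPM in PD-1/ICOS hybrids, against 17.4, 17.7 and 17.0 CPM in plain hybrids (log2 fold change 0.78 with a standard error of 0.0984, edgeR adjusted p = 1.60e-06). OASL, a relative of the RNA sensors that make 2-5A, had 12.7, 14.6 and 14.2 CPM in PD-1/ICOS and 7.31, 8.61 and 8.24 CPM in plain hybrids (log2 fold change 0.78, edgeR adjusted p = 2.25e-06). IFIT3 (0.70) and ISG20, an RNA exonuclease (0.77), also rose.

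The interferon-stimulated response element is the binding site of the STAT and IRF complex, and IFIT3 shows 2 copies of it. The letters GAAA, any 2 bases and GAAA again, on both strands of the 250-base window, occurred in 13 of the 21 list members with an entry (61.9%) and in 3.07% of all promoters. Among the called members with an entry, 4 of 7 held them. Whether the letters go with the rise was not tested. IFIT3 is read from chr10:89327747-89327940 (plus strand, GRCh38.p14, RefSeq, cut before the first annotated exon in the window), with both matches, on the reverse strand, in capitals.
IFIT3: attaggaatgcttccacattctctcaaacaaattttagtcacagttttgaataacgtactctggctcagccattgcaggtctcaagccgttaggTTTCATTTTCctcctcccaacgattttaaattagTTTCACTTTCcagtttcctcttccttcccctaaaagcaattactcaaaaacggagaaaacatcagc

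Other immune genes were mixed. Of 16 tested members of the B7 and butyrophilin families and their relatives, 7 rose and 1 fell (median 0.27). VSIR, the inhibitory checkpoint protein VISTA, had 16.5, 17.3 and 15.6 CPM in PD-1/ICOS hybrids, against 11.3, 9.11 and 9.69 CPM in plain hybrids (log2 fold change 0.72, edgeR adjusted p = 3.77e-06). TNFRSF14, the receptor HVEM, rose by 0.75 on the log2 scale, BTN3A2 by 0.57 and NECTIN2 by 0.38. PVR, the ligand of TIGIT and CD226, was the member that fell (−0.27), named after its value was seen. CD80 and CD86, the classical ligands of CD28, did not pass the filter on low counts.

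NF-kB targets and cytokines showed increases beside genes that did not pass. Of 16 NF-kB targets 7 rose and 1 fell (median 0.17). The one that fell, BIRC3 (−0.29), an inhibitor of apoptosis named after its value was seen, lost its call without plain replicate 2 (−0.24, edgeR adjusted p = 0.0665). ICAM1, an adhesion ligand for leukocytes, had 149, 137 and 146 CPM in PD-1/ICOS hybrids, against 105, 83.6 and 92.8 CPM in plain hybrids (log2 fold change 0.62, edgeR adjusted p = 3.16e-06), and NFKB2, RELB and TNIP1 rose by 0.41 to 0.45 on the log2 scale. Of 22 chemokines and cytokines 14 were tested, of which 4 rose and 1 fell. CCL5 (chr17:35871491-35880793), a chemokine that draws T cells, had 5.77, 7.63 and 5.91 CPM in PD-1/ICOS and 2.28, 2.05 and 2.14 CPM in plain hybrids (log2 fold change 1.58 with a standard error of 0.18, edgeR adjusted p = 3.04e-07). IL11 rose by 0.54, IL18 by 0.33 and TGFB1 by 0.27 on the log2 scale, with TGFB1 lost without plain replicate 2 (0.24, edgeR adjusted p = 0.0534), while CXCL1, a chemokine for neutrophils, had 3.06, 2.91 and 3.37 CPM in PD-1/ICOS and 5.14, 4.48 and 4.35 CPM in plain hybrids (log2 fold change −0.58, edgeR adjusted p = 0.00109). CCL5 was thus the cytokine gene with the largest difference among those tested.

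Stress pathways split by type. In the unfolded protein and ATF4 list, ATF4 is the factor that turns on amino acid supply and CHOP, and the chaperones of the ER form the other branch. Of 23 members 11 rose and 3 fell (median 0.24). VLDLR, a lipoprotein receptor, had 5.35, 7.0 and 5.72 CPM in PD-1/ICOS hybrids, against 2.94, 1.97 and 3.16 CPM in plain hybrids (log2 fold change 1.18, edgeR adjusted p = 6.88e-07). TRIB3 (0.73), DDIT3, which encodes CHOP (0.66), and SESN2 (0.81) rose, and the 3 members that fell, named after their values were seen, were the ER chaperones PDIA4 (−0.22), HYOU1 (−0.28) and the ER-resident factor MANF (−0.42). Of 19 NRF2 targets 5 rose and none fell (26.3% called, against 19.6% of all genes, median 0.05). HMOX1, which degrades heme, had 128, 108 and 126 CPM in PD-1/ICOS and 71.8, 43.4 and 65.0 CPM in plain hybrids (log2 fold change 1.01 with a standard error of 0.131, edgeR adjusted p = 3.46e-06). SLC7A11, the cystine transporter (0.68), ME1 (0.38), TXNRD1, a thioredoxin reductase (0.33), and FTL, the ferritin light chain (0.32), were the others that rose, of which SLC7A11 was lost without plain replicate 2 (0.58, edgeR adjusted p = 0.06) and ME1 without plain replicate 2 (0.30, 0.0981) or PD1_ICOS replicate 1 (0.32, 0.0831). The NRF2 count was 2 without plain replicate 2 and 3 without PD1_ICOS replicate 1.

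Cytosolic chaperones and their partners fell for the most part. Of 13 heat shock genes 8 fell and none rose (median −0.28). HSPH1, a nucleotide exchange factor of HSP70, had 159, 171 and 171 CPM in PD-1/ICOS hybrids, against 292, 294 and 301 CPM in plain hybrids (log2 fold change −0.82 with a standard error of 0.0626, edgeR adjusted p = 2.61e-10). DNAJA1, an HSP40 co-chaperone, had 392, 432 and 421 CPM in PD-1/ICOS and 598, 620 and 615 CPM in plain hybrids (log2 fold change −0.56, edgeR adjusted p = 2.02e-06). HSP90AA1 (−0.41) and HSPA4 (−0.28) fell too. None of these 4 overlapped between the groups, which held for 3592 of all 3614 called genes.

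Lipid genes rose in part. Of 29 genes of cholesterol and fatty acid synthesis 9 rose and 1, NSDHL of cholesterol synthesis, fell (−0.23, named after its value was seen, list median 0.19), with 5 called without PD1_ICOS replicate 1 and 20 called by DESeq2 on only the 6 libraries. SCD, the desaturase that makes monounsaturated fatty acids, had 6760, 5830 and 5580 CPM in PD-1/ICOS hybrids, against 4110, 3950 and 4360 CPM in plain hybrids (log2 fold change 0.55, edgeR adjusted p = 0.00285). SREBF1, the transcription factor of lipid synthesis, had 297, 281 and 280 CPM in PD-1/ICOS and 202, 187 and 195 CPM in plain hybrids (log2 fold change 0.56, edgeR adjusted p = 1.84e-05). Of 24 genes of lipid droplets and lipid sensing 4 rose and 3 fell (29.2% called, against 19.6% of all genes, median −0.04). In all, 4 were called without plain replicate 2 or 3 and 3 without PD1_ICOS replicate 3. ANGPTL4, a secreted inhibitor of lipoprotein lipase, had 142, 150 and 165 CPM in PD-1/ICOS and 65.9, 53.8 and 67.3 CPM in plain hybrids (log2 fold change 1.29 with a standard error of 0.149, edgeR adjusted p = 8.37e-07). PNPLA2, a triglyceride lipase, and PPARG, a lipid-sensing receptor, rose by 0.43 and 0.35 on the log2 scale. Groups did not overlap for any of these 5 genes, which held for 3592 of all 3614 called genes. PLIN2, a coat protein of lipid droplets (0.31), lost its call without plain replicate 2 (0.25, edgeR adjusted p = 0.0751) or PD1_ICOS replicate 3 (0.25, 0.0911). The members that fell, named after their values were seen, were CD36, a fatty acid transporter (−1.10), PDK4, a relative of PDK1 (−0.51), and NR1H3, a sterol-sensing receptor (−0.31).

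Genes of cell shape and matrix moved in both directions. Of 20 epithelial and mesenchymal genes tested 8 rose and 7 fell. FN1, the matrix protein fibronectin, had 24.4, 22.5 and 25.5 CPM in PD-1/ICOS hybrids, against 72.7, 61.9 and 63.4 CPM in plain hybrids (log2 fold change −1.45 with a standard error of 0.113, edgeR adjusted p = 5.12e-10). CDH1, the junction protein E-cadherin, had 55.6, 58.4 and 56.4 CPM in PD-1/ICOS and 97.9, 83.0 and 85.6 CPM in plain hybrids (log2 fold change −0.64, edgeR adjusted p = 3.27e-07). These 2 genes, a mesenchymal and an epithelial marker, both fell. SPARC, a secreted matrix-binding protein, had 179, 168 and 166 CPM in PD-1/ICOS and 109, 90.9 and 97.1 CPM in plain hybrids (log2 fold change 0.79, edgeR adjusted p = 3.17e-08). CLDN7, a tight junction protein, had 76.7, 68.4 and 71.0 CPM in PD-1/ICOS and 43.6, 44 and 42.6 CPM in plain hybrids (log2 fold change 0.73, edgeR adjusted p = 1.98e-06). KRT19, a ductal keratin, rose by 0.83 on the log2 scale. The TGF-beta list had 5 of 16 members higher and 4 lower. Among these, TGFBI (0.26), SMAD3 (0.23), TGFB1 (0.27) and LTBP2 (0.33) rose and BMP4 (−0.86), LTBP1 (−0.33) and SMAD7 (−0.24) fell, some named after their values were seen. TGFB1 lost its call without plain replicate 2 (0.24, edgeR adjusted p = 0.0534). CCN2, a matricellular protein, fell (38.9, 39.3 and 37.5 CPM in PD-1/ICOS against 73.1, 61.0 and 66.8 CPM in plain hybrids, log2 fold change −0.80, edgeR adjusted p = 5.15e-07). Of 24 adhesion genes and actin linkers, 4 rose, which were the adhesion molecule L1CAM (0.51), the focal adhesion proteins ZYX (0.36) and PXN (0.35) and the integrin ITGA5 (0.32), and the integrin ITGB8 fell (−0.71). The share called, 20.8%, is near the 19.6% of all genes, and the count ran between 4 (without plain replicate 2, plain replicate 3 or PD1_ICOS replicate 1) and 15 with DESeq2 on the 6 libraries.

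Most signaling lists had calls in both directions. The aryl hydrocarbon receptor (AhR), a sensor of small aromatic ligands, and its target CYP1B1 fell. CYP1B1, a cytochrome P450, had 131, 133 and 140 CPM in PD-1/ICOS hybrids, against 221, 213 and 206 CPM in plain hybrids (log2 fold change −0.67 with a standard error of 0.064, edgeR adjusted p = 1.98e-08), and AHR had 70.9, 73.5 and 78.4 CPM in PD-1/ICOS and 105, 110 and 100 CPM in plain hybrids (log2 fold change −0.50, edgeR adjusted p = 1.44e-04). In all, 4 of 11 AhR genes fell and none rose (median −0.14), with ALDH3A1, an aldehyde dehydrogenase, at −1.89 and ARNT2 at −0.28. The call of ARNT2 was lost without plain replicate 1 (−0.26, edgeR adjusted p = 0.0865), plain replicate 3 (−0.25, 0.0924) or PD1_ICOS replicate 2 (−0.22, 0.124). Of 27 genes of PI3K, AKT and FOXO signaling, which growth factor receptors use, 4 rose and 4 fell (29.6% called, against 19.6% of all genes). PIK3IP1, an inhibitor of PI3K, had a log2 fold change of 0.97, and the others that rose were SESN2 (0.81), FOXO3 (0.41) and RHEB (0.29). SESN3 (−0.80), FOXO4 (−0.38) and SESN1 (−0.22) were among those lower. The MAPK pathway list holds 23 immediate early genes and feedback inhibitors, of which 3 rose and 5 fell (34.8% called, against 19.6% of all genes). Those higher were ATF3 (0.92, edgeR adjusted p = 7.30e-07), JUNB (0.66) and JUND (0.44). Those lower were the phosphatases DUSP4 (−1.80) and DUSP6 (−0.28), the feedback inhibitor SPRY4 (−0.32) and the ETS factors ETV4 (−0.30) and ETV5 (−0.24). Of 21 p53 targets 5 rose and 3 fell (38.1% called, against 19.6% of all genes). The higher ones were SESN2 (0.81), the death receptor TNFRSF10B (0.42), BBC3 (0.41), GDF15 (0.39) and GADD45A (0.37). TIGAR (−0.41), ZMAT3 (−0.28) and SESN1 (−0.22) were lower. Some genes of the signaling lists were named after their values were seen. Of 21 apoptosis regulators 2 rose (BBC3 and CASP8, 0.25) and 2 fell (BIRC3 and BCL2L2, −0.23), a share of 19.0% that is near the 19.6% of all genes. BBC3 lost its call without plain replicate 3 (0.37, edgeR adjusted p = 0.066) or PD1_ICOS replicate 1 (0.32, 0.0981), BIRC3 without plain replicate 2 (−0.24, 0.0665), and BCL2L2 without any 1 of 4 of the 6 libraries (0.0679 to 0.0993). The p53 count was 5 without plain replicate 2 and 4 without plain replicate 3 or PD1_ICOS replicate 1, and the apoptosis count was 2 without plain replicate 2.

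**Figure D4:**
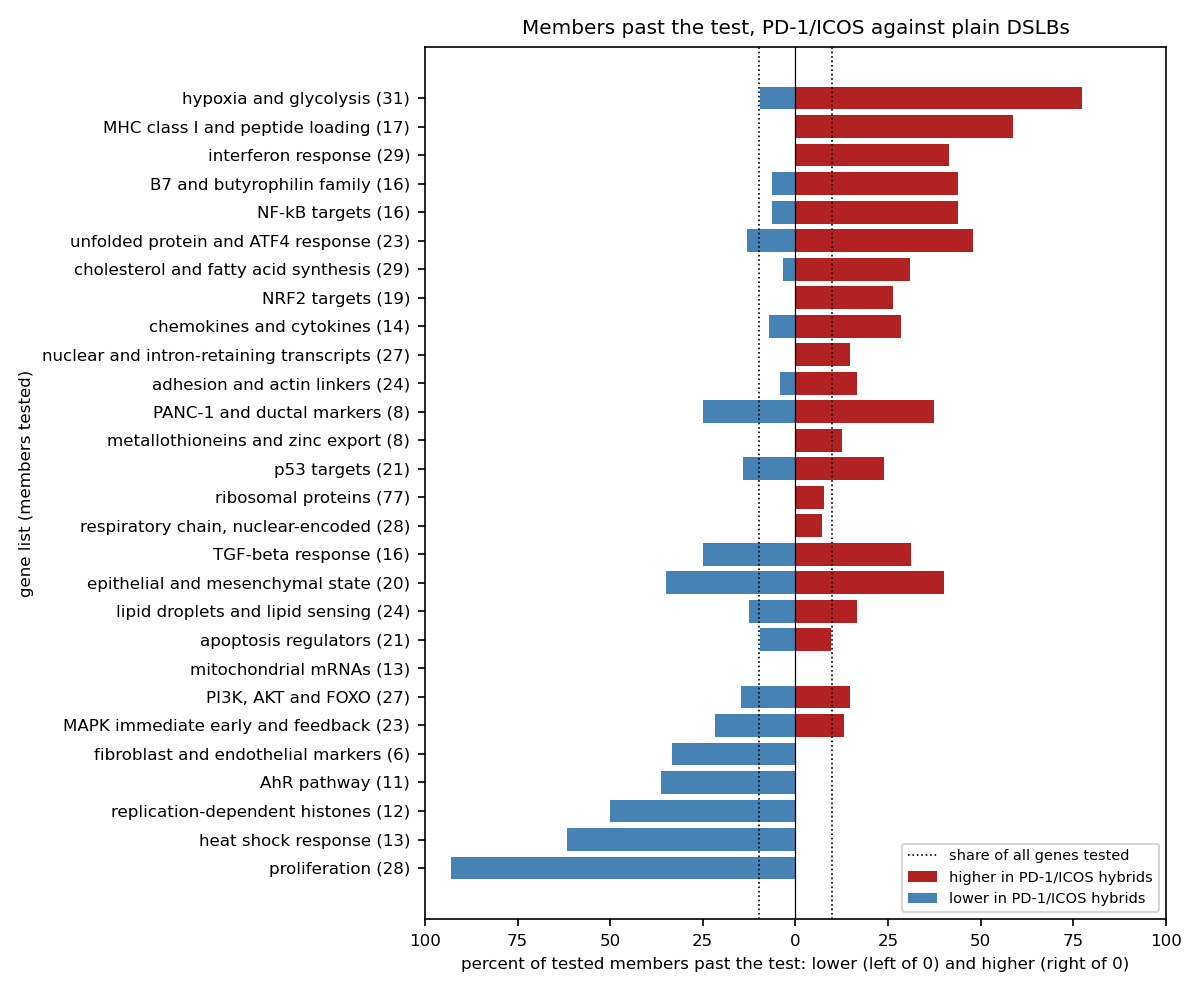
Share of tested members that passed higher (red, right of 0) or lower (blue, left of 0) in PD-1/ICOS hybrids relative to plain hybrids, for gene lists with at least 6 members tested, whose numbers stand in parentheses. Dotted lines mark the shares over all genes, 9.81% higher and 9.80% lower, and hypoxia and glycolysis and proliferation lie at the 2 ends.

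Lists that track RNA quality and other cell types were read beside these results. Of 13 mitochondrial mRNAs 0 passed with edgeR, DESeq2 or limma-voom on all libraries (median −0.23), 1 had an unadjusted edgeR p under 0.05, and 6 were called with no filter on low counts or in either fit to the 6 libraries. Of 77 ribosomal protein genes 6 rose (7.79%, median 0.17), and of 27 nuclear and intron-retaining transcripts 4 rose (14.8%, median 0.05), against 9.81% higher over all genes. The nuclear transcripts were MALAT1 (0.66), CCNL2 (0.49), GAS5 (0.34) and SNHG1 (0.32). The call of MALAT1 was lost without any 1 of 5 libraries (edgeR adjusted p between 0.0563 and 0.101), and those of CCNL2 (0.0515) and SNHG1 (0.0532) without plain replicate 1. The ribosomal count was 2 with a gene length trend removed, 60 with DESeq2 on the 6 libraries, and 3 without plain replicate 1 or 3 and 2 without PD1_ICOS replicate 1 or 3, and the nuclear count was 1 without plain replicate 1. Among 9 macrophage and B cell markers 2 were tested and both rose, and the list summed to 42.3 to 44.4 TPM in PD-1/ICOS and 31.6 to 32.2 TPM in plain hybrids. CD14, a coreceptor for lipopolysaccharide, had 0.973, 0.983 and 0.873 CPM in PD-1/ICOS and 0.238, 0.527 and 0.305 CPM in plain hybrids (log2 fold change 1.38, edgeR adjusted p = 1.43e-04), while CD68, a lysosomal protein, had a log2 fold change of 0.44 whose call was lost without plain replicate 3 (0.42, edgeR adjusted p = 0.0544). Among 11 fibroblast and endothelial markers 6 were tested and 2 fell (1 without plain replicate 1, plain replicate 3 or PD1_ICOS replicate 2), with COL3A1, a fibrillar collagen, at 6.36, 5.81 and 6.35 CPM in PD-1/ICOS and 15.6, 15.6 and 17.2 CPM in plain hybrids (log2 fold change −1.39, edgeR adjusted p = 6.73e-09). The other, COL1A1 (−0.48), is the one lost (edgeR adjusted p between 0.0565 and 0.0773). That list summed to 213 to 223 TPM in PD-1/ICOS and 306 to 346 TPM in plain hybrids. Its median log2 fold change was −0.0133, and 3 of the 6 tested members had a value above 0. The part of other cell types or RNA quality in the changes above was not tested.

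PD-1/ICOS hybrids were then set against PD-1 hybrids, which lack ICOS and its Fc tag but share the coupling step. No gene passed (0.0% of 18424, edgeR), while 1880 genes (10.2%) had an unadjusted p under 0.05, and limma-voom called 0 and DESeq2 3 genes. The smallest adjusted p was 0.32. ALDOC had 90.2, 72.2 and 82.5 CPM with PD-1/ICOS, against 93.0, 95.2 and 79.7 CPM with PD-1 alone (log2 fold change −0.13, standard error 0.11). TGM2 had 101, 91.6 and 87.5 CPM with PD-1/ICOS and 90.9, 94.0 and 82.1 CPM with PD-1 alone (log2 fold change 0.07, standard error 0.121). CDC6 had 20, 25.7 and 23.3 CPM with PD-1/ICOS and 27.6, 25.0 and 25.3 CPM with PD-1 alone (log2 fold change −0.17, standard error 0.0842). Ranges overlapped for all 3 genes. Of the 3614 genes that passed against plain hybrids, 0 passed here and 471 had an unadjusted p under 0.05, with a median absolute log2 difference of 0.091. The medians of the lists were −0.08 for hypoxia and glycolysis, −0.15 for proliferation, −0.03 for interferon and −0.03 for MHC class I genes, and the mitochondrial mRNAs stood at 0.47 with no member called. A p above the threshold does not show that the 2 kinds of hybrid were alike, and DESeq2 on the 6 libraries alone called 890 genes.

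Against tumoroids without DSLBs, 3814 genes passed (20.7%, edgeR), 2025 higher (11%) and 1789 lower (9.71%), while 5963 (32.4%) had an unadjusted p under 0.05. This comparison shares the PD-1/ICOS libraries with the one above, so the values are set side by side only. ALDOC had a log2 fold change of 1.79 against tumoroids without DSLBs and 1.74 against plain hybrids, HLA-B 0.74 and 0.73, NTS −2.64 and −2.75, FN1 −1.32 and −1.45, and CDC6 −0.80 and −0.76. On the first principal component of all libraries (31.7% of variance) the PD-1/ICOS libraries lay at −1.0 to 1.8, PD-1 libraries at 3.0 to 6.9, plain libraries at −27.6 to −25.5 and libraries without DSLBs at −30.3 to −17.3. The 24 libraries with PD-1 spanned −1.0 to 18.5. A PD-1/ICOS library was the lowest of them, and the other PD-1/ICOS libraries lay among libraries of other pairs.

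Against the mean of the 6 other PD-1 pairs (18 libraries), 26 genes passed (0.141%, edgeR), 21 higher (0.114%) and 5 lower (0.0271%), while 2470 (13.4%) had an unadjusted p under 0.05. FLNA, an actin cross-linker, was at 1520 CPM ± 43.3 (SD, n = 3) in PD-1/ICOS hybrids and at 1060 to 1320 CPM as means of the other pairs (log2 fold change 0.34 with a standard error of 0.0586, edgeR adjusted p = 0.0187). In plain hybrids FLNA averaged 1320 CPM. PLEC, a cytoskeletal linker (0.41), LAMA5, a laminin chain (0.36), and NOTCH1, a receptor (0.37), were higher than in the other pairs as well. Against plain hybrids their log2 fold changes were −0.03 for PLEC (edgeR adjusted p = 0.905), 0.29 for LAMA5 (0.026) and −0.29 for NOTCH1 (0.0358), and 4 of the 21 genes were called there, 3 higher and 1 lower. Without PD1_ICOS replicate 1, 2 or 3 the count was 1 gene, and it was 146 without PD1_CD2 replicate 1.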

How the data were processed

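Each library was deposited as 1 gene table of 60483 records. Per the labels and methods, total RNA went into a directional kit, and the authors trimmed single-end reads (Trim Galore 0.3.3, cutadapt), aligned them to hg38 with STAR and quantified them with RSEM, with the annotation release and any strand option not given in the sources used here. Overlapping, antisense and near-identical genes are therefore uncertain. The expected counts deposited by the authors are RSEM estimates, not whole and not normalized. The TPM values deposited by the authors correct for length and depth and served for list sums, and the deposited gene lengths served for the length trend.

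Here counts were rounded, filtered with filterByExpr (18424 genes) and scaled by TMM. Group means came from 1 edgeR 4.0.16 quasi-likelihood fit (robust) to the 30 libraries, so all groups share the estimate of spread, at a Benjamini-Hochberg threshold of 0.05. Alternatives were limma 3.58.1 (voom), DESeq2 1.42.0, RLE factors, other filters, a spline length trend, the replicate block, fits to the 6 libraries compared and each library left out, in R 4.3.3. Records were matched by identifier to GENCODE v44 (56321 of 60483). The common biological coefficient of variation was 0.0942. The edgeR step was tested on simulated data.

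Genes were named by rule. It took up to 10 per direction with the largest fold change among called genes whose groups did not overlap, at a mean of 50 counts or more, then the binding partners, PDCD1 and ICOS, and up to 4 genes from each list, called ones before others and smallest p first. Members, lists, rule and tests were chosen with earlier results of these data known. Promoters are RefSeq (GRCh38.p14). Some genes that the rule named are not reported here.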

Additional observations from a re-analysis of the deposited data

Results flagged for a closer look

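PD-1/ICOS hybrids were compared with the mean of the 6 other PD-1 pairs, and the test of that difference flagged 26 genes (edgeR adjusted p under 0.05). A gene can be flagged through ICOS or through the other second proteins, which this test cannot tell apart. Against PD-1 alone no gene passed (smallest edgeR adjusted p = 0.32). SCARNA7, a guide RNA of Cajal bodies, had 1 count in all over the 3 PD-1/ICOS libraries and 451 counts over the 18 libraries of the other pairs, a ratio of 0.012 per unit of depth (exact 95% interval 0.000303 to 0.0672, counting error only). Its fitted log2 fold change of −5.35 depends on the prior count, and plain hybrids averaged 0.087 CPM. The group means of SCARNA7 in the other pairs ran between 0.0915 and 0.918 CPM. RNA5-8SN1, one of 4 identical 5.8S rRNA records, averaged 0.44 CPM with PD-1/ICOS and 14.1 CPM in the others, a log2 fold change of −4.70. Its group means in the other pairs ran between 3.49 and 27.0 CPM, and plain hybrids averaged 4.13 CPM. FLNA (0.34), PLEC (0.41), LAMA5 (0.36) and NOTCH1 (0.37) were flagged as higher in the same test. Against plain hybrids, NOTCH1 was lower (42.6 CPM in PD-1/ICOS and 52.1 CPM in plain hybrids, log2 fold change −0.29, edgeR adjusted p = 0.0358), and 4 of the 21 higher genes were called there. With any 1 of the 3 PD-1/ICOS libraries left out, 1 gene was called, and over the other libraries left out the count ran between 15 and 146, the highest without PD1_CD2 replicate 1.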

How the results depend on the processing

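Against plain hybrids, 3614 genes were called, between 3307 and 4742 under 11 alternatives, 6695 with edgeR and 5599 with DESeq2 on the 6 libraries, and between 2441 and 2915 with 1 library left out. Without 3 libraries that stood apart (PD1_LAG3 replicate 3, no_DSLB replicate 2 and PD1 replicate 1, chosen after seeing the data) the count was 4303. Of 117 named genes called, 98 could be fitted in all 19 alternatives and 79 of these kept the call in each, while 19 fell outside the genes tested in 1 alternative and 11 of these kept it in the others, and 0 reversed, and PDCD1, which was not called, ran between −0.188 and 0.159 on the log2 scale with 1 library left out and reversed to 0.16 without plain replicate 2 and 0.07 without PD1_ICOS replicate 1. Of 32 lists, 14 kept a count of calls within 1.5 times under every alternative, among them hypoxia and glycolysis (24 to 30), proliferation (24 to 27), interferon (10 to 18), MHC class I (9 to 14) and heat shock genes (7 to 11).

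Against PD-1 alone, 0 genes were called by edgeR with any library left out, 3 by DESeq2 on all libraries, 890 by DESeq2 on the 6 libraries and 442 with no filter on low counts. Against tumoroids without DSLBs the count was 3814 and ran between 2671 and 3949 with 1 library left out. Against the other PD-1 pairs the 26 calls became 359 with DESeq2, 12 with limma-voom, 619 with no filter, 67 at a mean of at least 100 counts, 11 with the length trend removed, 101 at a threshold of 0.1, and, chosen after seeing the data, 81 without the 3 libraries and 50 in protein-coding genes only. They ran between 1 and 146 with 1 library left out, and leaving out PD1_ICOS replicate 1, 2 or 3 left 1. The causes were not tested.

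The mitochondrial share of counts differed by −0.256 percentage points in counts and −0.904 in TPM, and between −0.474 and −0.0245 with 1 library left out. The share of the top 100 genes differed by between 1.10 and 1.59 percentage points and the summed counts by between 5.37 and 20 M with 1 library left out. TPM gives no alternative for summed counts, since its sum is fixed.

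The paper describes 3 parallel biological replicates of the whole set of conditions, so replicate numbers may mark shared processing. Same-numbered PD-1/ICOS and plain libraries had residual correlations of −0.05, 0.02 and −0.05, too few values to settle whether the numbers pair. The main fit had no replicate term. With the replicate block 3718 genes were called against plain and 3961 against no DSLBs, 0 against PD-1 alone and 76 against the other pairs, and 16 there with the block and the length trend removed. Depth limits genes with few or no counts, such as CD274, PDCD1LG2 and ICOS.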
